A study of Homo sapiens with 6 samples.

Results

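The genes described here encode enzymes that cut the extracellular matrix, the activators that turn plasminogen into plasmin, and the proteins that hold or block them. They are 9 of the 58051 gene rows of the count table: the plasminogen activators PLAT and PLAU, the urokinase receptor PLAUR, the membrane serine protease ST14, the metalloproteinases MMP7, MMP14 and MMP15, and the metalloproteinase inhibitors TIMP1 and TIMP2. The rows were found through the GENCODE 29 symbols. The set was chosen by function, but also on the treatment difference itself, because the falls of PLAT and MMP7 were known when it was drawn up. Every difference of a member between the groups is therefore given as a description, without a test.

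The treated samples were OE33 cells, an established epithelial line derived from a human adenocarcinoma of the oesophagus, given 15 µM of the compound APX2009 for 24 h (3 libraries). The controls were OE33 cells left untreated (3 libraries), and no vehicle is named for them. APX2009 is an inhibitor of the redox function of APE1, a DNA repair enzyme that also reduces transcription factors. The series describes the replicates as independent biological ones, and the comparison asks which transcripts differ between APX2009 and untreated cells. The counts do not measure the redox function of APE1. Because all libraries come from 1 line, the values describe that line only. Polyadenylated RNA was sequenced.

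Plasminogen is an inactive precursor that the activators cleave to plasmin, which dissolves fibrin and activates some metalloproteinases. Urokinase, the product of PLAU, does this mainly at the cell surface while bound to its receptor, whereas the tissue activator made from PLAT is best known for acting on fibrin. Matrix metalloproteinases are zinc enzymes made as inactive proenzymes, and TIMP proteins bind their active site. In carcinomas of the gut, MMP7 is known for being made by the epithelial cells themselves, while many other metalloproteinases come from the stroma.

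The 6 libraries held from 21158750 to 26111656 gene counts. Levels are in CPM (CPM are gene counts scaled to a common library size, here with TMM factors), and a log2 change is that of APX2009 over untreated cells with its standard error (SE) from edgeR. All 9 members passed the filter on low counts. All 10 epithelial markers examined, EPCAM and KRT19 among them, had counts in each library. Their summed level was 16833 to 20733 CPM in APX2009 libraries and 29144 to 29907 CPM in untreated libraries, and most of that sum was KRT19, at 11303 CPM on average in APX2009 cells and 18555 CPM in untreated cells. Of the 10 markers 5 fell in edgeR, CDH1 and 4 keratin genes, and the other 5 were not called, with EPCAM at 446 CPM in APX2009 cells and 447 CPM in untreated cells on average. In these bulk samples, fewer cells with a transcript and less of it per cell cannot be told apart. The library of APX2009 replicate 1 stood apart. It held counts for 25015 genes, against 21845 to 22446 in the other 5. It also had counts for 9 of 10 fibroblast markers, with COL3A1, DCN and POSTN among those at 0 in the other 5, which had 2 or 3 markers each. Their summed level was 19.9, 9.16 and 10.5 CPM in APX2009 replicates 1, 2 and 3 and 8.43 to 12.7 CPM in untreated libraries, most of it from COL1A1. All 10 endothelial markers had counts in APX2009 replicate 1 too, some of them only 2 or 3, against 2 to 5 markers elsewhere. Their summed level was 7.66 to 8.27 CPM in APX2009 libraries and 7.03 to 7.79 CPM in untreated libraries, most of it from ESAM. The endothelial markers that did not pass the filter summed to 2.55 CPM in APX2009 replicate 1, against 0.0445 to 0.442 CPM in the other 5 libraries. Of 10 leukocyte markers 6 or 7 had counts in APX2009 libraries (7.28 to 8.20 CPM in sum) and 5 or 6 in untreated libraries (6.85 to 7.07 CPM). List counts that move by over 1.5 times without this library are given both ways. The mRNA of APE1 itself, APEX1, was at 173 ± 6.7 CPM in APX2009 cells and 181 ± 3.48 CPM in untreated cells (SD, n = 3; log2 change -0.06 ± 0.06, edgeR adjusted p = 0.469).

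Of the 9 members, PLAT, MMP7 and PLAU lay below the untreated level in all 3 treated libraries, and the other 6 had log2 changes between -0.06 and 0.09. Thus 3 of 9 members were past the threshold of an adjusted p under 0.05 in the fit over all genes, all of them lower. Of all 14773 genes tested, 34.7% were past it, 17.4% lower and 17.2% higher. The CPM values of the groups did not overlap for the same 3 members, against 49.4% of all genes tested. Since this contrast helped to choose the set, nothing is read from these shares. The median log2 change was -0.04 over the members and 0.02 over all genes tested, and the median absolute log2 change was 0.06 and 0.25. An absolute log2 change under 0.1 was found for 6 of the 9 members and for 22.7% of all genes tested. That mark lies just above the largest of these 6, the 0.09 of MMP15, so nothing is read from this share either. Without APX2009 replicate 1, MMP14 and MMP15 were past the mark, at 0.18 and 0.21.

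**Figure D1:**
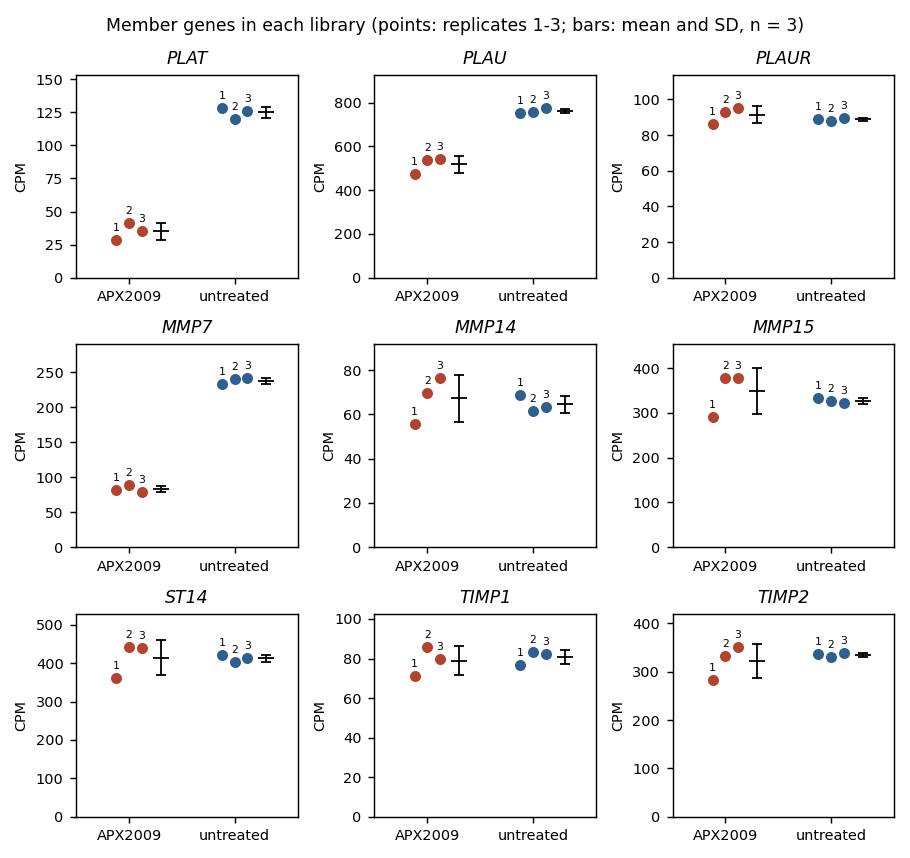
CPM of each member (y axis, from 0) in the 3 APX2009 libraries (red, left) and the 3 untreated libraries (blue, right); numbers are replicates, and black bars are the mean and SD. PLAT, MMP7 and PLAU have all treated points below all untreated points, whereas in the other 6 panels the groups overlap.

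PLAT, which encodes tissue plasminogen activator (ENSG00000104368, GRCh38 chromosome 8, 42175233 to 42207724), had the largest difference among the members. Its level was 28.7, 41.3 and 35.2 CPM in APX2009 replicates 1, 2 and 3, against 128, 120 and 126 CPM in untreated replicates 1, 2 and 3. Every treated library was far below every untreated one, with replicate 1 the lowest. The log2 change was -1.83 ± 0.11 (SE), a level 3.56-fold lower, which placed PLAT as the 11th largest fall of the 14773 genes. With library sizes set by the ERCC spike-ins, synthetic RNAs added to each sample, the log2 change was -1.84 ± 0.51, with a much larger SE. The spike-ins' share of counts was 0.315, 0.752 and 0.734% in APX2009 replicates 1, 2 and 3 and 0.480 to 0.564% in untreated libraries.

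PLAU encodes urokinase, the other plasminogen activator (ENSG00000122861, chromosome 10, 73909177 to 73917497). It was read at 473, 540 and 544 CPM in APX2009 replicates 1, 2 and 3, against 753, 758 and 774 CPM in untreated replicates 1, 2 and 3. The groups did not overlap, but the gap was small beside that of PLAT. The log2 change was -0.55 ± 0.07, a level 1.47-fold lower, and PLAU ranked 1215th among the falls. C10orf55 lies on the opposite strand and shares 916 of the 2950 exon bases of PLAU. As the strand setting of the counting is not given in the sources used here, reads of the pair cannot be told apart. C10orf55 had 55 to 90 counts per library. These counts do not show whether PLAU reads in the shared bases were left uncounted.

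PLAUR encodes the receptor that anchors urokinase on the cell (ENSG00000011422, chromosome 19, 43646095 to 43670547). Its level was 86.2, 93.2 and 95.0 CPM in APX2009 replicates 1, 2 and 3, against 88.9, 87.8 and 89.7 CPM in untreated replicates 1, 2 and 3. The treated values lay on both sides of the untreated ones, and the log2 change of 0.04 ± 0.06 was smaller than its error. The receptor transcript thus showed no difference beyond its error, while that of its ligand was lower. Per kb of exon, the level of PLAU over that of PLAUR was 8.30, 8.74 and 8.65 in APX2009 replicates 1, 2 and 3 and 12.8, 13.0 and 13.0 in untreated replicates 1, 2 and 3. The level of PLAU over that of PLAT moved the other way, at 37.0, 29.3 and 34.7 in APX2009 libraries and 13.2, 14.2 and 13.8 in untreated libraries. Urokinase mRNA was the more abundant of the 2 activators in every library, and by more after treatment. These ratios depend on the length used: per kb of the longest transcript, PLAU over PLAUR was 3.33 to 3.50 in APX2009 libraries and 5.13 to 5.23 in untreated libraries, and PLAU over PLAT was 17.0 to 21.5 and 7.64 to 8.23.

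ST14 encodes matriptase, a serine protease of the epithelial surface that can activate the urokinase precursor (ENSG00000149418, chromosome 11, 130159562 to 130210376). It was at 362, 441 and 440 CPM in APX2009 replicates 1, 2 and 3, against 422, 404 and 414 CPM in untreated replicates 1, 2 and 3. APX2009 replicate 1 was below and replicates 2 and 3 were above the whole untreated range, and the log2 change was 0.00 ± 0.08.

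MMP7 encodes matrilysin, a small secreted metalloproteinase without the haemopexin-like domain of its relatives (ENSG00000137673, chromosome 11, 102520508 to 102530753). Its level was 81.8, 88.4 and 79.2 CPM in APX2009 replicates 1, 2 and 3, against 233, 240 and 242 CPM in untreated replicates 1, 2 and 3. Both groups were tight and far apart. The log2 change was -1.52 ± 0.07, a level 2.87-fold lower, which ranked 38th among the falls. Unlike the other 8 members, MMP7 did not have its lowest treated value in replicate 1. With the ERCC scaling its log2 change was -1.46 ± 0.49, again with a much larger SE, and it was not past the threshold.

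MMP14 and MMP15 encode membrane-bound metalloproteinases. MMP14, which activates the precursor of MMP2 (ENSG00000157227, chromosome 14, 22836557 to 22849027), was at 55.6, 69.7 and 76.5 CPM in APX2009 replicates 1, 2 and 3, against 68.8, 61.4 and 63.5 CPM in untreated replicates 1, 2 and 3. The treated values spanned the whole untreated range, and the log2 change of 0.06 ± 0.11 ran from -0.05 to 0.18 over the alternative settings. MMP15 (ENSG00000102996, chromosome 16, 58025566 to 58046901) was at 290, 378 and 378 CPM in APX2009 replicates 1, 2 and 3, against 334, 326 and 321 CPM in untreated replicates 1, 2 and 3. Here treated replicate 1 was the lowest and the other two treated libraries the highest of the 6. The log2 change was 0.09 ± 0.10 with all libraries and 0.21 without APX2009 replicate 1.

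TIMP1 and TIMP2 encode secreted inhibitors of these enzymes, and TIMP2 also takes part in the activation of MMP2 by MMP14. TIMP1 (ENSG00000102265, chromosome X, 47582313 to 47586789) was at 71.2, 85.6 and 79.8 CPM in APX2009 replicates 1, 2 and 3, against 76.8, 83.3 and 82.5 CPM in untreated replicates 1, 2 and 3. TIMP2 (ENSG00000035862, chromosome 17, 78852977 to 78925387) was at 283, 333 and 350 CPM in APX2009 replicates 1, 2 and 3, against 336, 331 and 338 CPM in untreated replicates 1, 2 and 3. The groups overlapped for both genes. TIMP2 shares 198 exon bases with CEP295NL, which had 8 to 15 counts in APX2009 libraries and 4 to 10 in untreated libraries. The log2 changes were -0.04 ± 0.08 for TIMP1 and -0.06 ± 0.08 for TIMP2. The summed level per kb of both inhibitors over that of the 3 metalloproteinases was 0.851, 0.824 and 0.833 in APX2009 replicates 1, 2 and 3 and 0.572, 0.591 and 0.594 in untreated replicates 1, 2 and 3. MMP7 was the only term of that ratio whose groups did not overlap. Per kb of the longest transcript the ratio was 0.971 to 0.997 in APX2009 libraries and 0.593 to 0.61 in untreated libraries.

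**Figure D2:**
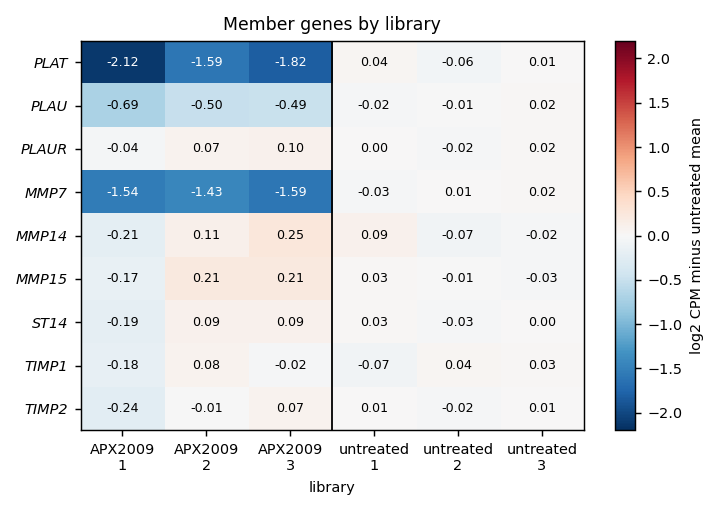
Each cell gives the log2 CPM of a member (rows) in a library (columns, APX2009 left of the line, untreated right) minus its untreated mean; red is above and blue below that mean. The 3 treated cells of PLAT and MMP7 run from -2.12 to -1.43, those of PLAU from -0.69 to -0.49, and the column of APX2009 replicate 1 is below 0 in all 9 rows.

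APX2009 replicate 1 was the lowest of the 3 treated libraries for 8 of 9 members, as it was for 41.6% of all genes tested. The members' log2 differences from the untreated mean ran from -2.12 to -0.04 in replicate 1, from -1.59 to 0.21 in replicate 2 and from -1.82 to 0.25 in replicate 3. This is the library with the fibroblast and endothelial counts given above, and the part of these in the lower values was not tested. Without it, the log2 changes of PLAT, MMP7 and PLAU were -1.71, -1.51 and -0.49.

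Levels were compared between members per kb of exon, since longer transcripts give more reads. In untreated cells PLAU was highest at 258 ± 3.84 CPM per kb (SD, n = 3), followed by MMP7 at 103 ± 1.93, ST14 at 95.0 ± 2.0, MMP15 at 74.0 ± 1.49, TIMP2 at 59.4 ± 0.667, TIMP1 at 52.5 ± 2.31, PLAUR at 19.9 ± 0.223, PLAT at 18.8 ± 0.65 and MMP14 at 14.5 ± 0.854. No pair of neighbours in that order had means within the sum of their SDs. After APX2009 the order was PLAU at 176 ± 13.4 CPM per kb, ST14 at 95.3 ± 10.4, MMP15 at 78.9 ± 11.5, TIMP2 at 57.2 ± 6.21, TIMP1 at 51.2 ± 4.73, MMP7 at 35.8 ± 2.03, PLAUR at 20.5 ± 1.05, MMP14 at 15.1 ± 2.39 and PLAT at 5.30 ± 0.952. In that group ST14 and MMP15, and TIMP2 and TIMP1, were not separated by more than the sum of their SDs. MMP7 thus took the 6th place after treatment and the 2nd without it, and PLAT took the last. With the length of the longest transcript in place of all exons, TIMP2 stood above MMP15 in both groups and the other places were the same, but some levels moved by over 1.5 times. PLAUR was then at 56.8 CPM per kb in APX2009 cells and 55.1 in untreated cells, PLAT at 10.1 and 36.0, and MMP7 at 62.8 and 180.

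**Figure D3:**
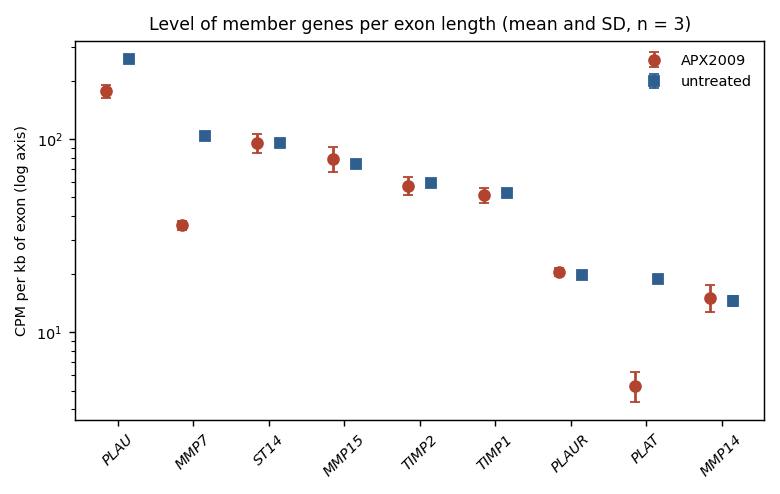
Mean level per kb of exon (log axis) of each member in APX2009 cells (red circles) and untreated cells (blue squares), with SD bars over 3 libraries and genes in the order of the untreated level. The pairs of points lie apart for PLAU (176 and 258), MMP7 (35.8 and 103) and PLAT (5.30 and 18.8) and close together for the other 6 genes.

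Promoter windows, from 250 bases before to 50 after the start site (RefSeq, GRCh38.p14), were examined for 6 members. These were PLAU, with 2 start sites, and MMP7, MMP14, MMP15, PLAUR and TIMP1. PLAT was left out of this search, and no window was at hand for ST14 or TIMP2. The windows were searched on both strands for 3 sets of letters, chosen because the factors that bind them are known regulators of such genes. These were TGANTCA for AP-1, a redox-sensitive factor long linked to APE1, AGGAAG for PEA3-type ETS factors, and TCAAAG for the TCF/LEF factors of Wnt signalling. Of all 35116 windows in the table, 7.71% hold the AP-1 letters, 33.6% the ETS letters and 12.9% the TCF/LEF letters. The AP-1 letters were in the windows of MMP7 and PLAUR and in neither window of PLAU. Of the windows searched, only that of MMP7 held all 3 kinds. It held the AP-1 letters at position -67 from the start site, the ETS letters at -169 and -145, and the TCF/LEF letters at -194 and -108. PLAUR held the AP-1 letters at -186 and the ETS letters at -15, 1 PLAU window and TIMP1 held the ETS letters at -221 and -87, and the windows of MMP14 and MMP15 held none. A match is a run of letters, not a shown binding site. Letters further than 250 bases before the start site were not searched, and a link between matches and changes was not tested. Below, 3 of the windows are printed 5′ to 3′ on the gene's strand, with the matched letters in capitals. They are MMP7 at chr11:102530698-102530997 (minus strand), PLAUR at chr19:43670120-43670419 (minus strand) and the second PLAU window at chr10:73910882-73911181 (plus strand).
MMP7: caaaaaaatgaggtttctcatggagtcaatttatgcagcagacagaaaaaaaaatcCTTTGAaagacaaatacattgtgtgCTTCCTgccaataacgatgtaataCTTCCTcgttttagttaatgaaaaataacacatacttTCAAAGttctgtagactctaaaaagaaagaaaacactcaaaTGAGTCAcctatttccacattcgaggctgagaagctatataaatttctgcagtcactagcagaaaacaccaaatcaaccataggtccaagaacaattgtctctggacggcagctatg
PLAUR: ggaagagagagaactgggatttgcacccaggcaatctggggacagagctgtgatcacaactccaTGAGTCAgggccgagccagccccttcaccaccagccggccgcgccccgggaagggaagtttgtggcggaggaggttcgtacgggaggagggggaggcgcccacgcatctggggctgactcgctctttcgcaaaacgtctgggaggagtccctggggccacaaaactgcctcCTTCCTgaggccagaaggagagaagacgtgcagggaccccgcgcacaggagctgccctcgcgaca
PLAU: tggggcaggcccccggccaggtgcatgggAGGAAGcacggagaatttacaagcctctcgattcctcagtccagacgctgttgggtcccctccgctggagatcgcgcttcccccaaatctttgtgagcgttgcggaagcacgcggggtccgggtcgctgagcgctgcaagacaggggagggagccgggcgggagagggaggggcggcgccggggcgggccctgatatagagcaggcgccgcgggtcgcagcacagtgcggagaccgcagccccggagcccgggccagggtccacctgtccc

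MMP7 lies at one end of a block of metalloproteinase genes on chromosome 11 that runs on to the end of MMP13 at 102955734, with 7 genes between them. Its raw counts were 2183, 1988 and 1654 in APX2009 replicates 1, 2 and 3 and 5215, 5971 and 5431 in untreated replicates 1, 2 and 3. No other gene of the block came near these counts. MMP1, an interstitial collagenase, had 346, 274 and 290 counts in APX2009 libraries and 184, 254 and 261 in untreated ones, MMP13 had 33 to 47 and 20 to 29, and the remaining 6 had at most 11 in any library. MMP20, the nearest of them, had 7, 2 and 2 counts in APX2009 replicates 1, 2 and 3 and 8, 11 and 7 in untreated replicates 1, 2 and 3, too few for it to be tested. Of all 23 MMP genes looked up, only the 3 members were at 10 CPM or more in all 6 libraries.

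The profiles most like those of PLAT and MMP7 were sought among 9764 other tested genes, as the root mean square difference of log2 CPM, taken from the untreated mean, over 6 libraries. For MMP7 they were COL17A1, a collagen of hemidesmosomes, at 0.043, TNFSF15, a cytokine of the TNF family, at 0.053, and NCAPG, a condensin subunit, at 0.068. For PLAT they were the keratin gene KRT81 at 0.112, HSPG2, which encodes the proteoglycan perlecan, at 0.204, and the transglutaminase gene TGM2 at 0.256. As genes picked for closeness to these profiles, all 6 were bound to be lower in treated cells. Their log2 changes ran from -1.74 to -1.45.

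The other genes of the pathway were taken from lists written for the biology of these members. Earlier results of these data were known when the lists were chosen, so nothing is read from their shares of called genes. The listed genes were tested in the fit over all genes. Of 122 such genes 81 could be tested. Of these, 12 rose and 26 fell (46.9%, against 34.7% of all genes tested), and the median log2 change was -0.11. With ERCC scaling none of the 81 passed in edgeR, and 5 had an unadjusted p under 0.05, while the log2 changes of these genes and the members moved by -0.20 to 0.15 and no called gene turned direction.

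Genes for inhibitors of plasminogen activators and of plasmin changed in 4 of 5 tested cases, 3 lower and 1 higher. SERPINB2, which encodes the inhibitor PAI-2, fell 1.76-fold (log2 change -0.82 ± 0.10, edgeR adjusted p = 0.000206), whereas SERPINE2, for protease nexin-1, rose 1.55-fold (0.63 ± 0.16, adjusted p = 0.0119). Without APX2009 replicate 1 the list held 2 higher and 3 lower. SERPINA5 fell at a level under 2 CPM on average (-0.97 ± 0.29, adjusted p = 0.0269) but did not pass without APX2009 replicate 3 or untreated replicate 2 or 3 (adjusted p = 0.071, 0.082 and 0.107).

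Plasminogen itself was hardly detected, with at most 1 count of PLG in any library, where 3 counts correspond to 0.115 to 0.142 CPM. Of 8 tested genes for its activation and binding, 1 rose and 3 fell. ANXA2, a plasminogen-binding surface protein, fell 1.37-fold to 1382 ± 73.4 CPM in APX2009 cells, against 1892 ± 46.3 CPM in untreated cells (adjusted p = 0.000701), while the gene of its partner S100A10 rose 1.16-fold (adjusted p = 0.0224). The collagen receptor gene MRC2, whose product binds the urokinase receptor, fell 2.24-fold from a low level (adjusted p = 0.00391), and the plasminogen receptor gene PLGRKT fell 1.32-fold (adjusted p = 0.0298). Without untreated replicate 3 the list held 2 calls, S100A10 and PLGRKT having adjusted p of 0.118 and 0.103. S100A10 was also lost without untreated replicate 1 (adjusted p = 0.0797), and PLGRKT without untreated replicate 2 or APX2009 replicate 3 (0.135 and 0.0833).

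Among 5 tested MMP genes besides the members, MMP11 (stromelysin-3) fell 1.51-fold (adjusted p = 0.00939), and MMP1 had a log2 change of 0.38 ± 0.13 (adjusted p = 0.0513, and 0.0217 to 0.166 over the settings other than ERCC). MMP1 passed in 8 of 15 alternative settings, among them DESeq2 and limma voom with all libraries (adjusted p = 0.0415 and 0.0401). The settings without APX2009 replicate 1 or untreated replicate 3 were also among them (edgeR adjusted p = 0.0492 and 0.0374). Each of these made 1 higher and 1 lower in this list. Without untreated replicate 2 it held 2 lower. The gelatinase genes MMP2 and MMP9 were not tested. MMP2 had 13 counts in APX2009 replicate 1 and 0 in the other 5 libraries, and TIMP3, a matrix-bound inhibitor, had 42 there and at most 1 elsewhere. A2M, HGF and ADAMTS1 showed the same pattern, 5 of the 41 genes not tested in all. Of 5 tested genes that activate or restrain metalloproteinases 3 fell: FURIN, whose product activates MMP14 in the secretory pathway, 1.3-fold (adjusted p = 0.00933), the related PCSK6 1.51-fold (adjusted p = 0.00142) and BSG, an inducer of metalloproteinases, 1.21-fold (adjusted p = 0.032). BSG did not pass without untreated replicate 1, 2 or 3 (adjusted p = 0.0625, 0.109 and 0.0877).

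None of the 7 tested genes for matriptase inhibitors, partners and substrates passed in edgeR, with 2 at an unadjusted p under 0.05. DESeq2 called 1, PRSS8, and limma voom none. With a replicate block, and likewise with no filter on low counts, edgeR called 1 gene of this list lower. The matriptase inhibitor genes SPINT1 and SPINT2 were at 618 ± 52.1 and 699 ± 55.6 CPM in APX2009 cells, against 548 ± 10.7 and 686 ± 9.1 CPM in untreated cells (SD, n = 3; edgeR adjusted p = 0.102 and 0.813). F2RL1, the receptor PAR2, had a log2 change of -0.02 ± 0.07 (adjusted p = 0.877). Without APX2009 replicate 1 the list had 2 calls, SPINT1 higher (log2 change 0.24, adjusted p = 0.00203) and PRSS8 lower, and without APX2009 replicate 3 it had 1 lower. Of 9 tested relatives of ST14, TMPRSS2 and TMPRSS4 fell 1.33-fold and 1.17-fold (adjusted p = 0.00151 and 0.0272), and TMPRSS13 and TMPRSS11E rose 1.55-fold and 1.74-fold (adjusted p = 0.00353 and 0.0244). TMPRSS4 was lost without untreated replicate 1, 2 or 3 (adjusted p = 0.0822, 0.069 and 0.0666). TMPRSS11E was lost without APX2009 replicate 1 or 2 or untreated replicate 2 or 3 (0.0622, 0.07, 0.0528 and 0.0971). The list thus held 1 higher and 1 lower without untreated replicate 3, and 1 higher and 2 lower without APX2009 replicate 1.

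**Figure D4:**
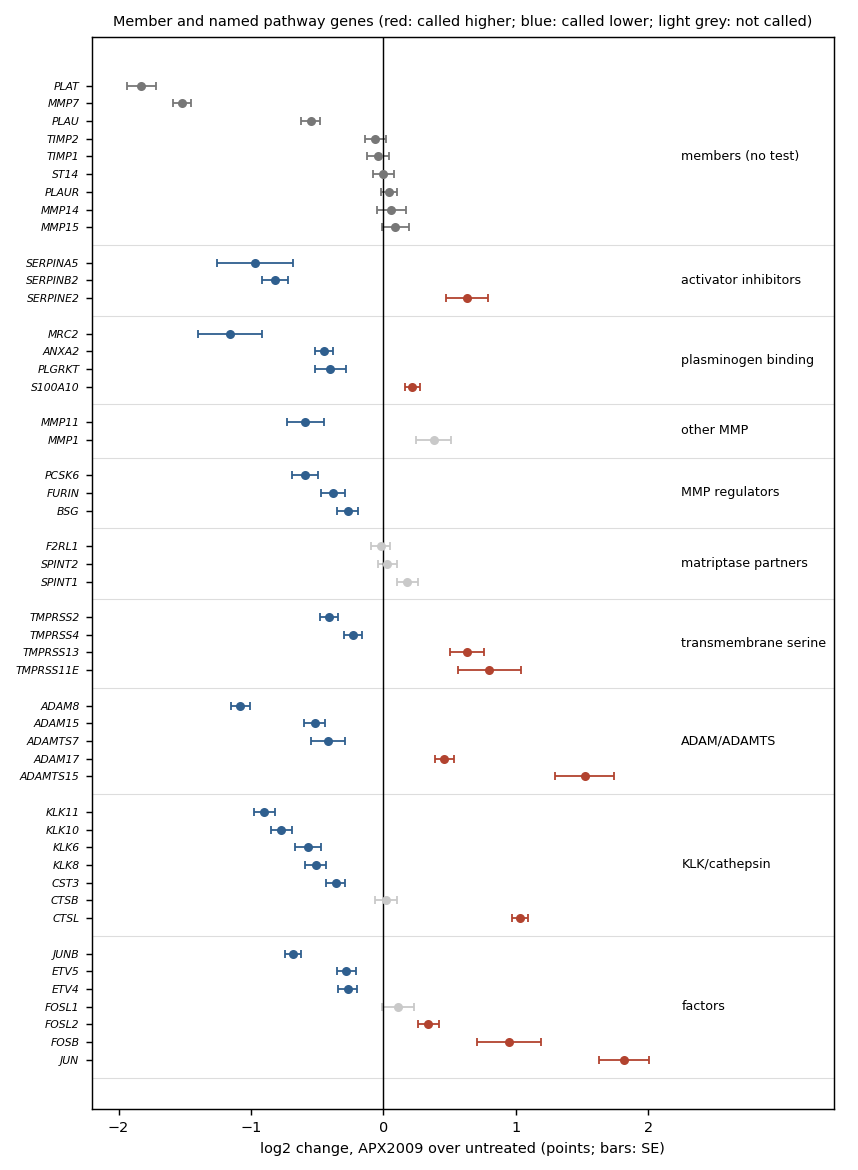
Log2 change of APX2009 over untreated cells with SE bars (x axis) for the 9 members (grey, top block, no test) and tested genes of each pathway list, blue where lower and red where higher at an adjusted p under 0.05 and light grey where not past it. PLAT and MMP7 at -1.83 and -1.52 lie furthest to the left, and JUN at 1.82 furthest to the right.

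Other secreted and surface proteases changed in both directions. Of 6 tested kallikrein genes, secreted serine proteases of epithelia, 5 fell and none rose, among them KLK11 1.86-fold, KLK10 1.71-fold, KLK6 1.49-fold and KLK8 1.43-fold (adjusted p = 2.57e-05, 5.58e-05, 0.00137 and 0.00103). Of 7 cathepsin genes 3 rose and none fell, led by CTSL at 2.05-fold (adjusted p = 1.52e-06), while CTSB had a log2 change of 0.02 ± 0.08 (adjusted p = 0.892). Their inhibitor cystatin C, from CST3, fell 1.29-fold (adjusted p = 0.00291). The list of kallikreins, cathepsins and cystatins held 3 higher and 7 lower with all libraries, 1 higher and 7 lower without APX2009 replicate 3 or untreated replicate 2 or 3, 2 and 7 without APX2009 replicate 2 or untreated replicate 1, and 4 and 8 without APX2009 replicate 1. Among ADAM genes the sheddase ADAM17 rose 1.37-fold (adjusted p = 0.000589), and ADAM8 and ADAM15 fell 2.11-fold and 1.43-fold (adjusted p = 5.04e-06 and 0.000907). ADAMTS15 rose 2.86-fold from a level under 1 CPM on average (adjusted p = 0.000524), and ADAMTS7 fell 1.34-fold (adjusted p = 0.0277), but not without APX2009 replicate 3 or untreated replicate 1 or 3 (0.059, 0.0822 and 0.106). Without APX2009 replicate 1 the ADAM and ADAMTS list held 2 higher and 5 lower, against 2 higher and 3 lower with all libraries.

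Of 14 tested genes for transcription factors known for protease promoters, 3 rose and 4 fell. The AP-1 genes JUN, FOSB and FOSL2 rose 3.53-fold, 1.93-fold and 1.27-fold (adjusted p = 8.22e-05, 0.0114 and 0.01), JUNB fell 1.6-fold (adjusted p = 2.97e-05), and FOSL1 had a log2 change of 0.11 ± 0.12 (adjusted p = 0.489). The ETS factor genes ETV4 and ETV5 each fell 1.21-fold (adjusted p = 0.0173 and 0.0112). ETV4 was lost without untreated replicate 2 or 3 (0.0593 and 0.0676) and ETV5 without APX2009 replicate 2 or untreated replicate 2 (0.057 and 0.0632). The list held 5 higher and 5 lower without APX2009 replicate 1, 3 and 1 without untreated replicate 2, 3 and 2 without APX2009 replicate 2 or untreated replicate 3, and 3 and 3 without either of the other two libraries.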

How the data were processed

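The authors deposited 1 table of raw, whole-number counts per Ensembl gene, without normalization, with 58051 gene rows and 92 ERCC rows. The submitters' processing notes name Trimmomatic 0.36, STAR 2.5.2b, Subread 1.5.2, featureCounts and GRCh38. The sources used here do not give the annotation release, strand setting or filters. GENCODE 29 matched 57447 gene IDs; unmatched IDs held 0.0348% of gene counts.

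The ERCC rows entered neither library sizes nor tests. After filterByExpr and TMM scaling, edgeR 4.0.16 (R 4.3.3) tested treatment alone by its quasi-likelihood test, and p-values were adjusted by Benjamini-Hochberg over all 14773 genes tested. "Called", "rose" and "fell" mean an adjusted p under 0.05. SEs were derived from the F statistic. The fit was tested on simulated data. No 2 libraries of a group agreed within sampling noise (chi-square per degree of freedom 3.06 to 30.0).

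The members and lists were chosen with earlier results of these data known. The rule for named genes took all members, in each list the called genes up to the 6 with the smallest p, some fixed genes, and the 3 nearest profiles of PLAT and MMP7, sought where the mean log2 CPM was 3 or more. PRSS8, C10orf55, CEP295NL, MMP20, the markers named and the genes with counts mainly in 1 library were chosen after their values were seen. 1 gene that the rule takes is not reported here. Alternatives were RLE, upper-quartile, total-count and ERCC scaling, other filters, each library left out, a replicate block, DESeq2 1.42.0, limma voom 3.58.1 and a threshold of 0.01. Figures were drawn with matplotlib 3.10.9.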

Additional observations from a re-analysis of the deposited data

Results flagged for a closer look

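In the library of APX2009 replicate 1, the 9 fibroblast markers that did not pass the low-count filter summed to 5.54 CPM, against 0.0444 and 0.0958 CPM in APX2009 replicates 2 and 3 and 0.0445 to 0.0803 CPM in untreated libraries. These rows are outside the tests, and the level in this library was above that of every untreated library. The 9 members were all below their untreated mean in the same library; the part of these transcripts in that was not tested.

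The spike-in rows, also outside the tests, took 0.752% and 0.734% of counts in APX2009 replicates 2 and 3 (Wilson 95% intervals 0.749 to 0.756% and 0.730 to 0.737%, counting error only), against 0.480% to 0.564% in untreated libraries. The share in APX2009 replicate 1 was 0.315%, below every untreated library.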

How the results depend on the processing

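Over all genes, 5119 were called in edgeR, 3503 to 5709 when 1 library was left out, 136 with ERCC scaling (129 higher and 7 lower, so 5.15% lower against 50.3% in the report) and 3057 at an adjusted p under 0.01. ERCC scaling left 1 member (PLAT) of 3 and 0 of 38 pathway genes called, and the threshold of 0.01 left 23 pathway genes; leaving out 1 library gave 3 or 4 members and 29 to 48 pathway genes. Replicate numbers gave no clear pairing of the samples: deviations of same-numbered libraries correlated at 0.14, 0.078 and 0.006. APX2009 replicates 1 and 2 correlated best with their own number, and 0.14 was the highest of all pairs. APX2009 replicate 3 correlated best with untreated replicate 2 (0.115). With deviations taken from means of 3 libraries, these correlations depend on one another and do not settle the pairing. With the replicate block 5501 genes, 3 members and 40 pathway genes were called. Among the 135 member log2 changes under alternatives, those of PLAT ran from -1.96 to -1.71 and those of MMP7 from -1.56 to -1.46. Those of PLAU ran from -0.59 to -0.49, and those of the remaining members lay between -0.12 and 0.21. Without APX2009 replicate 1, MMP15 was also past the threshold. For members, being past the threshold is given here as a description, not as a test. Of 585 values for 39 named pathway genes, 62 lost their call (33 with ERCC scaling), 9 gained one and none reversed. Without a filter S100A10 and ADAMTS7, and with DESeq2 ADAMTS7 and TMPRSS11E, were lost. Levels under 0.115 to 0.142 CPM, 3 counts in a library, are not detectable at this depth.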
